A study of Homo sapiens with 18 samples.

Results

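The 48 genes described here encode transcription factors that pattern the embryo and are not HOX genes. They comprise 7 PAX genes, SIX2, SIX3 and SIX6, 6 LIM homeodomain genes (LHX1, LHX2, LHX3, LHX5, LHX9 and ISL1), 4 NK homeodomain genes, 4 DLX genes, 2 GATA genes, 4 SOX genes, 5 T-box genes, 3 bHLH genes (OLIG2, NEUROG1 and NEUROG2) and 10 further homeodomain genes. They are 48 of 20046 protein-coding genes in GENCODE and were chosen by name, with earlier results of these data known. For each histone mark, a gene was represented by the counted interval with the highest mean count over 4 libraries among those overlapping 2 kb either side of any of its transcription start sites.

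The libraries came from MOLM-13 cells, an established human acute myeloid leukemia line that carries a KMT2A rearrangement. The cells were treated for 72 h with 100 nM PR-957 (ONX-0914), an inhibitor of the immunoproteasome, or with DMSO, the diluent. A figure legend of the study gives a shorter treatment time for these libraries. Chromatin was profiled by Cut & Tag, in which an antibody directs a transposase to a histone modification so that the DNA around it can be sequenced. H3K27ac, H3K27me3, H3K4me1 and H3K4me3 each had 2 DMSO and 2 PR-957 libraries. All libraries came from this single line, and the labels do not say that replicates were separate cultures, so p-values measure only the spread between these libraries. In bulk libraries, fewer cells carrying a mark and less of the mark per cell cannot be told apart.

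Genes of this kind are classical targets of the Polycomb repressive complexes. Polycomb repressive complex 2 places H3K27me3 over the CpG-rich promoters and bodies of developmental regulators in cells where they are silent, often as domains far wider than a promoter. H3K4me3 marks promoters that are active or poised, H3K27ac marks active promoters and enhancers, and H3K4me1 marks enhancers and the flanks of promoters. A promoter that carries both H3K4me3 and H3K27me3 is called bivalent. None of the member families is characteristic of myeloid blood cells, although GATA, SOX, PAX and LIM homeodomain relatives act in other blood lineages or in leukemia.

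The sum of counts over all intervals ranged from 9885836 to 44591150 per library. Counted intervals were often nested, so a read could be counted in several of them. As a check of the label, all 8 myeloid marker genes (CD33, LYZ, MPO, ITGAM, CSF1R, FLT3, SPI1 and CEBPA) had an H3K27ac interval and none had an H3K27me3 interval. Of the markers of other lineages, CD3E, CD2, MS4A1, GATA1 and HBB had no interval in any mark.

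Promoter sequences are shown for the members that anchor the results: PAX2, with the highest H3K27me3 level per kb among members, EVX1, with the smallest H3K27me3 p, PAX6, with higher H3K4me3, and DLX1, with lower H3K4me1. Each line gives the 250 bases upstream of the annotated start, 5′ to 3′ on the gene's strand, from RefSeq on GRCh38.p14, with every CG in capitals. CG reads the same on both strands.
PAX2, chr10:100735146-100735395, plus strand: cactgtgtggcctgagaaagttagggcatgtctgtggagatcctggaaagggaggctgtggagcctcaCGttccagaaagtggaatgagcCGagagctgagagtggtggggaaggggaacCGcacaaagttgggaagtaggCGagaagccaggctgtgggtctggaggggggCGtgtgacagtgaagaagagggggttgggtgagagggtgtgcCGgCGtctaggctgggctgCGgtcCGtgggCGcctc
EVX1, chr7:27242552-27242801, plus strand: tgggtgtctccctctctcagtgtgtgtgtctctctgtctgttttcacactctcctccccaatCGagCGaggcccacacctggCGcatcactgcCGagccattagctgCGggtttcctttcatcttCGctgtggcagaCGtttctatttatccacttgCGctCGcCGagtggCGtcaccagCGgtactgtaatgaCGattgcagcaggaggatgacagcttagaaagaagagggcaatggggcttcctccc
PAX6, chr11:31817962-31818211, minus strand: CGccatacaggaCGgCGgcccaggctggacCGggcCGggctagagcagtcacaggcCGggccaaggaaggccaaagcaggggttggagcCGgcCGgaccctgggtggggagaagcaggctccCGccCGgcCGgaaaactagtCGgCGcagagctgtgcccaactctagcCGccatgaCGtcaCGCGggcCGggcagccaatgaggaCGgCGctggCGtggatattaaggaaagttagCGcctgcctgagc
DLX1, chr2:172085257-172085506, plus strand: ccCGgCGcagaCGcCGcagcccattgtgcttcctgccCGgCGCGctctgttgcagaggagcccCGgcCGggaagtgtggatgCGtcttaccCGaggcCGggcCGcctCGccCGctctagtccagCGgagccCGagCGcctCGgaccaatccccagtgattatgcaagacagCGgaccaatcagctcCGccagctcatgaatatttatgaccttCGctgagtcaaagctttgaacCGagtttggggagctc
These stretches held 10, 13, 22 and 23 CG, against a median of 17 over the same 250 bases of 21613 protein-coding promoters in the RefSeq table. All of them lay inside the gene's H3K27me3 interval. The DLX1 stretch also lay inside its H3K4me3, H3K27ac and H3K4me1 intervals, and the PAX6 stretch lay inside its H3K4me1 interval but outside its H3K4me3 interval. The PAX2 and PAX6 stretches belong to RefSeq starts other than the canonical starts in GENCODE (chr10:100745582 and chr11:31811322). Both canonical starts lay inside the H3K4me3 interval of their gene, so the PAX2 and PAX6 stretches do not describe the promoters there. The RefSeq table matched 32 of the 48 members. IRX5, which had the highest H3K27ac level per kb, was not matched.

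CG content was therefore measured for all 48 members in hg38, in the 1 kb centred on the canonical start site. The ratio of observed to expected CG (the count of CG over that predicted from the C and G content) had a median of 0.785, from 0.383 at PAX8 to 1.07 at TBX1. It was at least 0.6 at 41 of 48 members (85.4%), compared with 66.3% of 20046 protein-coding genes. This is a description of the sequence and not a test.

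**Figure D1:**
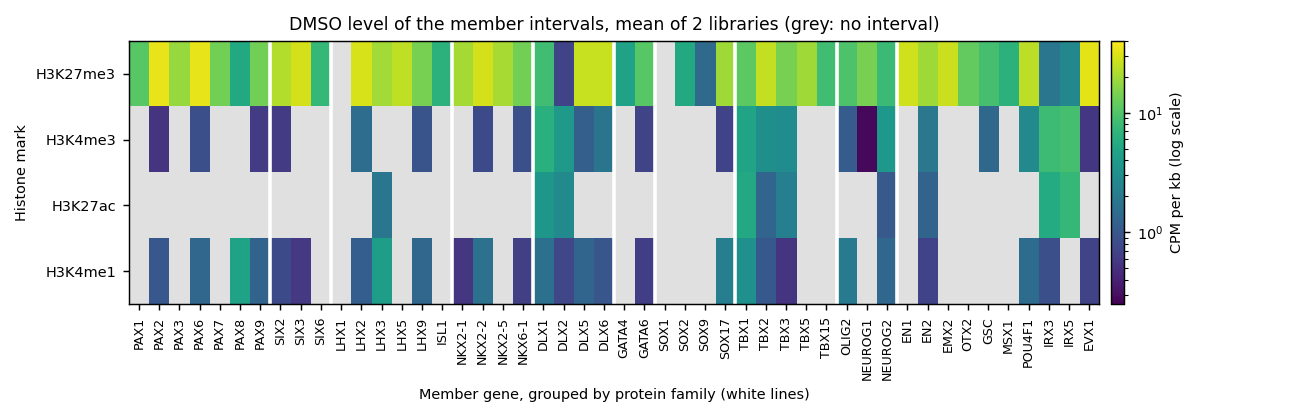
Level of each mark in DMSO at the 48 members, as the mean of 2 libraries in CPM (count relative to the scaled library total) per kb of interval, on a logarithmic colour scale; columns are genes grouped by protein family and grey cells are genes with no interval of the mark. The H3K27me3 row is filled for 46 members, whereas H3K27ac is filled for 10.

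In DMSO, most of these genes were covered by wide, strong H3K27me3 domains and carried H3K27ac less often than protein-coding genes at large. An H3K27me3 interval lay at 46 of 48 members (95.8%), compared with 19.8% of all protein-coding genes. H3K4me3 had an interval at 26 members (54.2%), compared with 63.8% of all protein-coding genes. H3K27ac had an interval at 10 members (20.8%) against 60.3%, and H3K4me1 went the other way, with an interval at 27 members (56.2%) against 43.4%. Among 84 further developmental factors listed for comparison, the shares were 94.0% for H3K27me3, 45.2% for H3K4me3, 8.33% for H3K27ac and 34.5% for H3K4me1. Wide H3K27me3 coverage was thus not particular to the members, and H3K27ac was more frequent at them than at these factors. Levels are given as CPM per kb, that is, the count relative to the scaled total of its library, divided by interval width.

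The H3K27me3 intervals of members had a median width of 29.8 kb, from 0.874 to 124 kb, compared with a median of 6.05 kb over all protein-coding genes with an interval. Their median DMSO level was 14.1 CPM per kb, compared with 1.97 over all protein-coding genes and 9.82 over the further developmental factors. The level exceeded 20 CPM per kb at 16 members, lay between 10 and 20 at 15, and was under 10 at 15. PAX2, a regulator of kidney and optic nerve development, had the highest level at 34.0 CPM per kb over 63.2 kb. PAX6, which directs eye and forebrain development, followed at 32.8 over 44.3 kb, and EVX1, an even-skipped homeodomain gene, at 32.6. The EVX1 interval (chr7:27143865-27263758, 120 kb) also covers the HOXA cluster beside it, so its value is that of the whole domain. DLX5 and DLX6, which act in limb and craniofacial development, are neighbours that shared 1 interval, and the 46 members therefore had 45 distinct intervals.

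LHX1 and SOX1 had no interval in any mark. For LHX1, a regulator of kidney and head development, the lists held no interval of any mark over 2662 kb around the gene on chromosome 17, a stretch with the start sites of 45 protein-coding genes, so the gene had no value here. SOX1, a neural progenitor factor, had its nearest H3K27me3 interval 4.89 kb from the canonical start, outside the 2 kb window. All other members had H3K27me3.

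By combination of marks, 16 members carried H3K27me3 alone. They included PAX1, PAX3 and PAX7, the muscle, neural crest and skeletal regulators, SOX2 and SOX9, and TBX5, the cardiac and forelimb factor. A further 15 members carried H3K27me3 with H3K4me3 and H3K4me1, among them PAX2, PAX6, LHX2, DLX5, GATA6 and OLIG2. All 4 marks were present at 8 members, DLX1, DLX2, TBX1, TBX2, TBX3, NEUROG2, EN2 and IRX3. The remaining combinations were H3K27me3 with H3K4me1 at PAX8, SIX3 and NKX2-1, and H3K27me3 with H3K4me3 at NEUROG1 and GSC. IRX5 lacked only H3K4me1, and LHX3 lacked only H3K4me3. The PAX8 H3K4me1 interval (chr2:113224975-113235577) did not overlap its H3K27me3 interval (chr2:113271192-113281569), which covers the canonical start.

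The H3K4me3 and H3K27me3 intervals overlapped at all 26 members that had H3K4me3, which is 54.2% of members, compared with 10.4% of all protein-coding genes and 45.2% of the further developmental factors. At 22 of these 26, the H3K4me3 interval lay wholly inside the H3K27me3 interval. PAX6 is an example, with an H3K4me3 interval of 5.39 kb within an H3K27me3 interval of 44.3 kb. The exceptions were IRX3 (98.4% of the H3K4me3 interval inside), TBX1 (69.4%), DLX2 (10.5%) and IRX5 (4.57%). At IRX5, the H3K27me3 interval (chr16:54933014-54943496) abutted the H3K4me3 interval (chr16:54926744-54933314) and shared only its end.

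H3K4me3 at members was low, with a median of 1.28 CPM per kb over 26 intervals, compared with 4.60 over all protein-coding genes and 7.03 over 10 blood transcription factors. The highest levels were at IRX5 and IRX3, Iroquois homeodomain factors of neural and limb patterning, with IRX5 at 8.81 and 9.24 in DMSO and 9.27 and 9.28 in PR-957 CPM per kb and IRX3 at 7.96 and 8.18 in DMSO and 7.51 and 8.72 in PR-957. DLX1 followed at 6.14 and 6.37 in DMSO and 6.03 and 6.37 in PR-957. IRX5 and IRX3 also had the lowest H3K27me3 among members with both marks except DLX2, at 2.65 and 1.85 CPM per kb in DMSO.

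H3K27ac was measured at 10 members. IRX5 had the highest level, 7.17 and 7.46 in DMSO and 8.38 and 8.88 in PR-957 CPM per kb, followed by IRX3 at 4.95 and 6.43 in DMSO and 4.49 and 4.60 in PR-957 and TBX1, the pharyngeal arch and cardiac outflow factor, at 5.17 and 5.43 in DMSO and 5.55 and 5.66 in PR-957. These lay above the median over all protein-coding genes with H3K27ac, 4.00 CPM per kb, and the other 7 members lay below it. DLX1 stood at 3.67 and 3.64 in DMSO and 3.23 and 3.43 in PR-957, DLX2 at 2.66 and 2.91 in DMSO and 3.45 and 2.97 in PR-957 and TBX3 at 2.16 and 2.33 in DMSO and 2.75 and 2.99 in PR-957. The lower end was formed by LHX3 at 1.99 and 1.67 in DMSO and 1.87 and 1.81 in PR-957, TBX2 at 1.46 and 1.16 in DMSO and 1.13 and 2.07 in PR-957 and EN2, the midbrain and hindbrain factor, at 1.28 and 1.26 in DMSO and 1.46 and 1.19 in PR-957. NEUROG2, a proneural factor, stood at 0.430 and 1.65 in DMSO and 2.15 and 1.35 in PR-957, with its first DMSO library far below the second. H3K4me1 at members had a median of 1.15 CPM per kb, compared with 1.32 over all protein-coding genes with an interval. It was highest at PAX8, the thyroid and kidney factor, at 5.35 and 4.03 in DMSO and 4.07 and 3.98 in PR-957 CPM per kb, LHX3, the pituitary and motor neuron factor, at 4.25 and 4.35 in DMSO and 3.46 and 3.64 in PR-957, and TBX1 at 3.42 and 2.99 in DMSO and 2.47 and 2.98 in PR-957. The PAX8 value is that of the H3K4me1 interval outside its H3K27me3 interval.

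After PR-957, H3K27me3 was lower at most of these genes, while no member was called higher with the scaling used throughout. Of the 46 members tested, 39 fell at an adjusted p under 0.05 and 0 rose (edgeR's quasi-likelihood test with Benjamini-Hochberg adjustment over 31806 intervals). The median log2 fold change was -0.31, compared with -0.021 over all protein-coding genes with an interval and 0.016 over all intervals. The weakest of the 39 fell by 15.0% and the strongest fell by 28.2%, and in all 39 both PR-957 libraries lay below both DMSO libraries. In the same fit, 5.09% of all intervals fell, as did 9.99% of the intervals that represent protein-coding genes. Both PR-957 libraries lay below both DMSO libraries at 41 of the 46 members, against 22.5% of all intervals. A further 52 of 79 developmental factors fell, with a median of -0.28, so genes outside the 48 fell too.

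Wide intervals fell more often than narrow ones in the whole table. Among all intervals of at least 10 kb, 29.0% fell, and among those of at least 20 kb, 48.3% fell. Intervals under 2 kb had a median log2 fold change of 0.17. Of the members with an interval of at least 10 kb, 39 of 42 fell, and of those with at least 20 kb, 33 of 36 fell (91.7%). Within 20 to 50 kb, the 30 members had a median log2 fold change of -0.32, compared with -0.15 over all 1129 intervals of that width. From 50 kb upward the medians were close, -0.33 over the 6 members and -0.30 over all 104 intervals, of which 69.2% fell. These medians depended on scaling. With library size alone, the median from 20 kb upward was 0.00042 over all intervals and -0.16 over the 36 members. None of the 4 members with intervals under 10 kb, DLX2, GATA4, SOX9 and IRX3, was called. How far width, level and the choice of gene each contribute was not tested.

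The size of the decline depended on how libraries were scaled. With trimmed mean of M-values (TMM) scaling, used throughout, the median of all intervals was 0.016. With scaling by library size alone it moved to 0.18, and the member median moved from -0.31 to -0.15. The distance between members and all intervals was the same, -0.33 in both, as these scalings differ by a near constant shift. With library size alone, 27 members fell and TBX1 rose, against 2.19% of all intervals lower and 1521 of 31806 higher. With cyclic loess offsets, which remove a trend with level, 23 members fell and LHX3 and TBX1 rose. Of all intervals, 3.03% were lower and 796 of 31806 higher under these offsets. The member median was then -0.13, and its distance from all intervals was smaller, at -0.14. With offsets that remove the trend with GC content, 41 members fell, against 2058 of 31806 intervals lower. In total 21 of the 39 members kept their call under every one of the 16 alternatives, among them TBX3, TBX5, LHX9, EVX1, SIX2, SIX3, PAX6 and EN1.

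**Figure D2:**
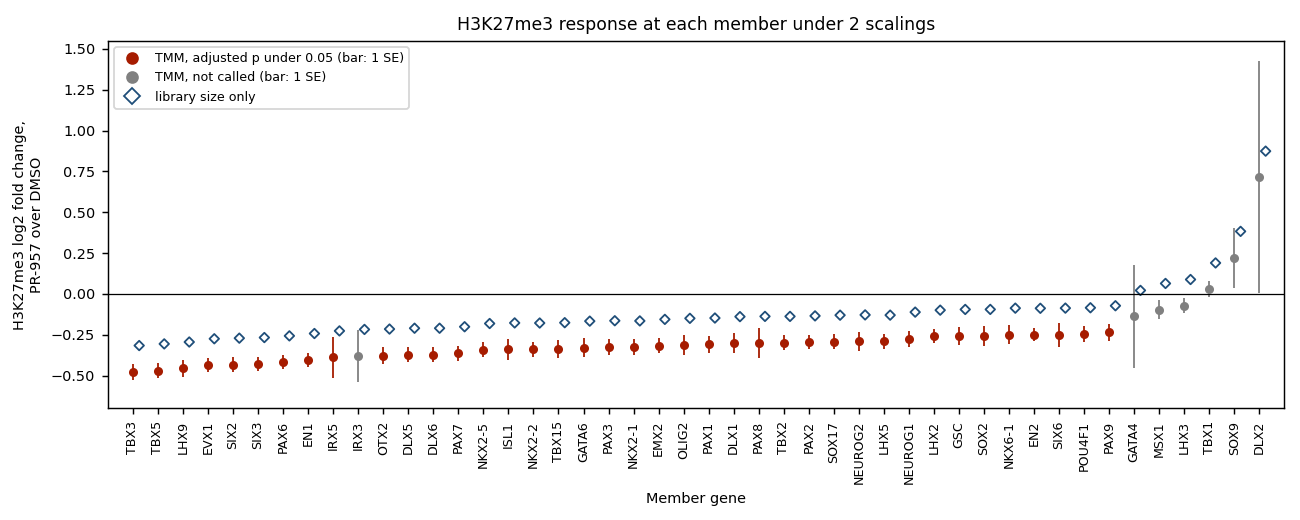
H3K27me3 log2 fold change (PR-957 over DMSO) at each of 46 members, ordered from lowest to highest, with TMM scaling (circles with bars of 1 SE, red where called) and with scaling by library size (open diamonds). The 39 called members lie between -0.48 and -0.23 with TMM, and library-size values lie above them by a near constant amount, with TBX1 above 0 under both.

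As a share of all counts, the 45 distinct H3K27me3 intervals of members held 2.78% of DMSO replicate 1 and 2.78% of DMSO replicate 2, but 2.48% and 2.46% after PR-957. The PR-957 share was 0.888 of the DMSO share. A share of the total is itself a scaling by library size, and a read in nested intervals counts more than once in it. The groups did not overlap, and the exact two-sided permutation test gave p = 0.333, the smallest that 2 against 2 libraries allow.

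T-box genes, which act in heart, limb and pharyngeal development, held both the strongest decline and a member without one. TBX3, a limb, heart and breast regulator, had 14.2 and 14.0 in DMSO and 10.2 and 10.1 in PR-957 CPM per kb (log2 fold change -0.48 ± 0.046, edgeR adjusted p = 6.40e-16). TBX5, its neighbour on chromosome 12 with a separate interval, had 19.8 and 18.9 in DMSO and 13.4 and 14.5 in PR-957 (log2 fold change -0.47 ± 0.048, edgeR adjusted p = 4.18e-15). In these and the next T-box genes the DMSO libraries were high and the PR-957 libraries low without overlap. TBX2 had 24.8 and 25.9 in DMSO and 21.1 and 20.1 in PR-957, and TBX15, a factor of skeletal and skin patterning, had 8.12 and 8.69 in DMSO and 6.55 and 6.76 in PR-957. TBX1 had 11.4 and 11.1 in DMSO and 11.9 and 11.0 in PR-957 (log2 fold change 0.029 ± 0.049, edgeR adjusted p = 0.859), so its groups overlapped. Its interval had a GC content of 63.1%, the highest of the members with intervals of at least 10 kb.

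All 7 PAX genes fell, with a median log2 fold change of -0.31. PAX6 went from 32.6 and 33.0 CPM per kb in DMSO to 24.9 and 24.3 in PR-957 (log2 fold change -0.42 ± 0.043, edgeR adjusted p = 8.22e-15). PAX7, a muscle stem cell factor, had 13.9 and 13.3 in DMSO and 10.7 and 10.5 in PR-957 CPM per kb, and PAX3, which acts in muscle and neural crest precursors, had 18.3 and 18.4 in DMSO and 14.4 and 14.9 in PR-957. In each of them both PR-957 libraries were low. PAX1, a factor of the vertebral column, had 10.5 and 11.0 in DMSO and 8.65 and 8.70 in PR-957, and PAX9, a tooth and skeletal factor, had 13.2 and 14.2 in DMSO and 11.4 and 11.9 in PR-957. PAX2 had 34.3 and 33.6 in DMSO and 28.5 and 26.9 in PR-957. With cyclic loess offsets the PAX2 value was -0.021 and was not called. PAX8 had 5.58 and 5.23 in DMSO and 4.40 and 4.38 in PR-957 (log2 fold change -0.30 ± 0.090, edgeR adjusted p = 0.0238) and kept its call under 5 of 16 alternatives.

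SIX2, SIX3 and SIX6, which act in eye, forebrain and kidney development, all fell, with a median of -0.43. SIX2, which maintains kidney progenitors, had 22.2 and 22.5 in DMSO and 16.9 and 16.3 in PR-957 CPM per kb. SIX3, a forebrain and eye factor that neighbours SIX2 in a separate interval, had 29.1 and 29.1 in DMSO and 22.1 and 21.1 in PR-957. Both PR-957 libraries lay below both DMSO libraries in each. SIX6, an eye and pituitary factor, had 6.89 and 7.89 in DMSO and 6.41 and 6.07 in PR-957 (log2 fold change -0.25 ± 0.073, edgeR adjusted p = 0.0192) and kept its call under 9 of 16 alternatives, not including DESeq2.

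Of the LIM homeodomain genes with an interval, 4 of 5 fell. LHX9, a gonad and limb factor, had 14.0 and 14.2 in DMSO and 10.6 and 10.0 in PR-957 CPM per kb (log2 fold change -0.46 ± 0.053). LHX2, which acts in forebrain, eye and hair follicle development, had 29.8 and 29.4 in DMSO and 25.5 and 24.0 in PR-957, and LHX5, a forebrain factor, had 24.5 and 24.9 in DMSO and 21.0 and 19.4 in PR-957. ISL1, which specifies motor neurons and heart progenitors, had 6.75 and 6.36 in DMSO and 5.09 and 5.25 in PR-957. The PR-957 libraries were the low ones in all 4. LHX3 had 19.3 and 20.0 in DMSO and 19.2 and 18.2 in PR-957 (log2 fold change -0.073 ± 0.047, edgeR adjusted p = 0.498), a small difference over an interval with a GC content of 61.2%. With GC offsets LHX3 was called lower and with cyclic loess offsets higher, so its direction was not settled.

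All 4 NK homeodomain genes fell. NKX2-5, a cardiac factor, had 21.1 and 20.1 in DMSO and 16.4 and 16.1 in PR-957 CPM per kb, NKX2-2, a factor of ventral neural tube and pancreatic islets, had 28.6 and 29.4 in DMSO and 23.6 and 22.3 in PR-957, and NKX2-1, a lung and thyroid factor, had 19.5 and 20.6 in DMSO and 16.4 and 15.6 in PR-957. NKX6-1, a factor of pancreatic beta cells, had 12.8 and 14.3 in DMSO and 10.7 and 12.1 in PR-957. Replicates of a group differed less than the groups did in each of these, and NKX6-1 had the widest spread, with the lower DMSO library above the higher PR-957 library by a small margin.

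Of the 4 DLX genes 3 fell, and the intervals counted for them differed in width and level. The shared DLX5 and DLX6 interval had 26.1 and 26.6 in DMSO and 20.5 and 20.2 in PR-957 CPM per kb (log2 fold change -0.37 ± 0.044), and DLX1, a factor of forebrain interneurons, had 8.39 and 8.46 in DMSO and 6.63 and 7.03 in PR-957. DLX2, the neighbour of DLX1, had an interval of only 1.20 kb within its window, with raw counts of 10, 7, 18 and 14 in the 2 DMSO and 2 PR-957 libraries. Its log2 fold change of 0.72 ± 0.71 rests on those few counts and was not called (edgeR adjusted p = 0.714).

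GATA6, a factor of endoderm and heart, had 10.9 and 10.6 in DMSO and 8.67 and 8.42 in PR-957 CPM per kb and fell. GATA4, which acts in the same tissues, had an interval of 0.874 kb with 4.36 and 5.04 in DMSO and 5.09 and 3.54 in PR-957, and its groups overlapped. Among SOX genes, SOX17, an endoderm factor, had 19.5 and 19.7 in DMSO and 16.1 and 15.9 in PR-957, and SOX2, a factor of pluripotent and neural progenitor cells, had 5.54 and 5.42 in DMSO and 4.65 and 4.53 in PR-957. Both fell. SOX9, a factor of cartilage and sex determination, had 1.26 and 1.65 in DMSO and 1.72 and 1.70 in PR-957 over 7.12 kb (log2 fold change 0.22 ± 0.18, edgeR adjusted p = 0.642) and was not called.

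The 3 bHLH genes fell within a narrow range, with log2 fold changes from -0.31 to -0.27. OLIG2, a factor of oligodendrocytes and motor neurons, had 9.80 and 9.54 in DMSO and 8.24 and 7.37 in PR-957 CPM per kb. NEUROG1, a proneural factor, had 13.9 and 14.1 in DMSO and 11.6 and 11.5 in PR-957, and NEUROG2 had 7.81 and 8.09 in DMSO and 6.38 and 6.61 in PR-957. None of the 3 had overlapping groups.

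Of the other 10 homeodomain genes, 8 fell. EVX1, in the domain that spans HOXA, had 33.3 and 31.8 in DMSO and 25.3 and 22.9 in PR-957 CPM per kb (log2 fold change -0.43 ± 0.041, edgeR adjusted p = 2.24e-16), the smallest p among members. EN1, a midbrain, hindbrain and limb factor, had 27.3 and 28.6 in DMSO and 21.8 and 20.6 in PR-957, and EN2 had 19.4 and 19.0 in DMSO and 16.7 and 15.7 in PR-957 over 124 kb, the widest member interval. EN2 is the one called member whose value changed sign, to 0.033 with cyclic loess offsets. EMX2, a factor of cortex and urogenital development, had 26.0 and 26.8 in DMSO and 21.8 and 20.6 in PR-957, OTX2, a factor of forebrain and eye, had 12.1 and 11.7 in DMSO and 9.23 and 9.05 in PR-957, and GSC, the Goosecoid factor of the gastrula organizer, had 8.62 and 9.19 in DMSO and 7.09 and 7.80 in PR-957. POU4F1, a sensory neuron factor, had 24.0 and 23.9 in DMSO and 20.8 and 19.6 in PR-957. All 7 had PR-957 libraries below DMSO libraries. IRX5 had 2.68 and 2.62 in DMSO and 1.99 and 2.06 in PR-957 (edgeR adjusted p = 0.0448) and kept its call under 5 of 16 alternatives. IRX3 had 1.94 and 1.75 in DMSO and 1.54 and 1.30 in PR-957 (log2 fold change -0.38 ± 0.16, edgeR adjusted p = 0.186), of the same size as IRX5 but over a narrower interval with a larger error. MSX1, a factor of tooth, palate and limb, had 6.35 and 6.78 in DMSO and 6.41 and 5.89 in PR-957 (log2 fold change -0.10 ± 0.058, edgeR adjusted p = 0.451), with overlapping groups.

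**Figure D3:**
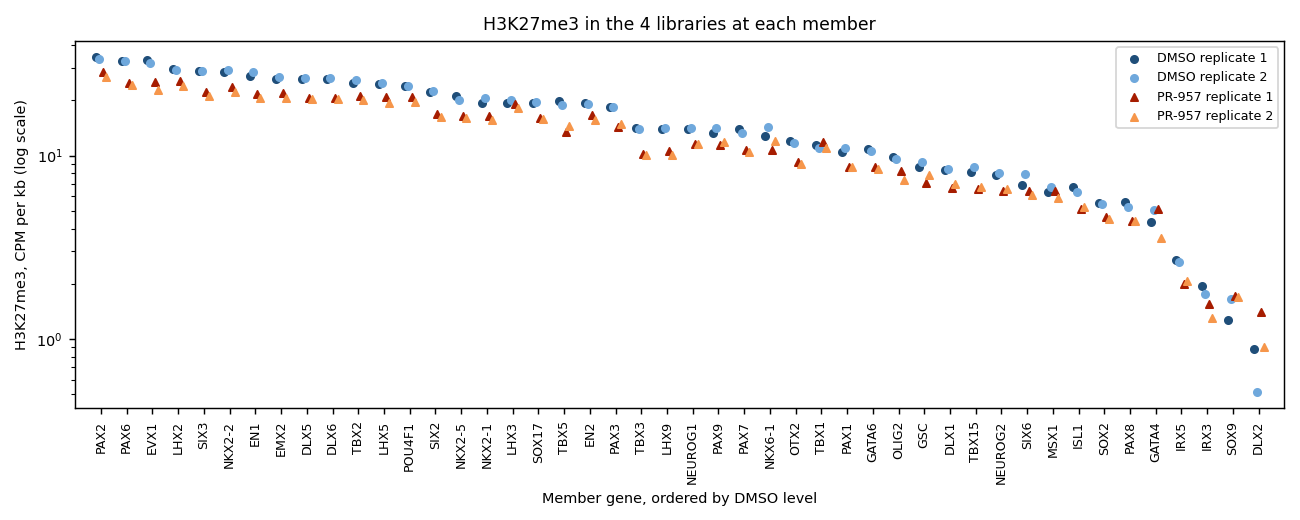
H3K27me3 in CPM per kb (logarithmic axis) at each of 46 members in the 4 libraries, with circles for DMSO and triangles for PR-957, ordered by DMSO level. Circles lie above triangles at 41 members across the range from 34.0 CPM per kb at PAX2 to 2.65 at IRX5 and 1.85 at IRX3.

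Members with and without H3K4me3 fell. Among the 26 members with an H3K4me3 interval, 23 fell (median log2 fold change -0.30), and among the 20 without, 16 fell (median -0.32). Over the 46 members, which share libraries and in the case of DLX5 and DLX6 the interval, the log2 fold change had a Pearson correlation of 0.577 and a Spearman correlation of 0.182 with the GC content of the interval. With the DMSO level per kb the values were -0.415 and -0.361. Of all 183 H3K27me3 intervals in the windows of members, which include nested ones, 145 fell and 0 rose.

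H3K4me3 rose at PAX6 alone. The PAX6 interval (chr11:31808982-31814368) had 0.856 and 0.856 in DMSO and 1.37 and 1.36 in PR-957 CPM per kb, a log2 fold change of 0.67 ± 0.16 (edgeR adjusted p = 0.0184), from raw counts of 206, 192, 224 and 221. The 2 replicates of each treatment nearly coincided. The level after PR-957 remained under the median of all protein-coding genes with H3K4me3. Of 26 members, 1 was called, against 0.226% of all 59229 intervals in either direction. The call was lost in DESeq2 (adjusted p = 0.477), in the sum over outermost intervals (edgeR adjusted p = 0.338) and whenever 1 of the 4 libraries was left out, with edgeR adjusted p from 0.0876 to 0.480. At the same gene H3K27me3 fell, as given above.

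Across the other 25 members H3K4me3 was not called. The median over all 26 was 0.17 against -0.001 over all intervals. Values above 0 were found at 21 of 26 members and at 5930 of 12795 protein-coding genes. At an unadjusted p under 0.05 there were 5 of the 26 members, PAX6 included, compared with 1028 of 12795 protein-coding genes. NEUROG1 had the largest value, 1.33 ± 0.53 (edgeR adjusted p = 0.451), from raw counts of 21, 15, 38 and 26. NEUROG2 and LHX9 had the next smallest p, at 0.23 ± 0.094 and 0.46 ± 0.20. The genes with the most H3K4me3 barely moved, with 0.040 ± 0.070 at IRX5, 0.0082 ± 0.070 at IRX3 and -0.013 ± 0.076 at DLX1. The share of counts in the 26 intervals was 0.0326% and 0.0322% in DMSO and 0.0343% and 0.0340% in PR-957 (exact two-sided permutation test, p = 0.333, the smallest possible). Among the further developmental factors 1 of 38 was called, OTX1, a forebrain factor, with a log2 fold change of 0.42 ± 0.087 (edgeR adjusted p = 0.00116, DESeq2 0.320).

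H3K27ac did not change detectably at any of the 10 members. None was called by edgeR or DESeq2, and edgeR called 0.238% of all 74510 intervals in either direction. An unadjusted p under 0.05 was found at 2 of the 10 members, compared with 1155 of 12089 protein-coding genes. The 2 members were IRX3, at -0.31 ± 0.11 (edgeR adjusted p = 0.326), and IRX5, at 0.24 ± 0.097 (edgeR adjusted p = 0.433). The Iroquois pair thus had values of opposite sign, and a difference between them was not tested. The next smallest p was at NEUROG2, 0.79 ± 0.54, where the groups overlapped. The other values ranged from -0.13 ± 0.18 at DLX1 to 0.36 ± 0.30 at TBX3, with a median of 0.14 over all 10. With errors of 0.097 to 0.54 on the log2 scale, changes of the size seen in H3K27me3 would not have been resolved at most of them.

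H3K4me1 fell at DLX1 alone. The DLX1 interval (chr2:172082248-172088688) had 1.46 and 1.79 in DMSO and 1.03 and 1.15 in PR-957 CPM per kb, a log2 fold change of -0.57 ± 0.15 (edgeR adjusted p = 0.0239), with both PR-957 libraries below both DMSO libraries. Of 27 members, 1 was called, against 1.94% of all 108158 intervals in either direction. The call was lost with GC offsets (edgeR adjusted p = 0.111), in DESeq2 (adjusted p = 0.506) and when DMSO replicate 1, DMSO replicate 2 or PR-957 replicate 1 was left out, with edgeR adjusted p of 0.0576, 0.319 and 0.196. The H3K4me1 libraries also had the widest range of totals, from 15204186 in PR-957 replicate 1 to 30584219 in DMSO replicate 1.

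DLX2, the neighbour of DLX1, had the lowest value, -0.79 ± 0.32 (edgeR adjusted p = 0.175), and OLIG2 the second smallest p, with 1.98 and 2.09 in DMSO and 1.43 and 1.73 in PR-957 CPM per kb and a log2 fold change of -0.35 ± 0.12 (edgeR adjusted p = 0.0824). The median over 27 members was -0.23, against -0.077 over all protein-coding genes with an interval. Values below 0 were found at 18 of 27 members and at 5401 of 8702 protein-coding genes, a similar share. With GC offsets the median was -0.088. The share of counts in the 27 intervals was 0.0239% and 0.0240% in DMSO and 0.0206% and 0.0222% in PR-957 (exact two-sided permutation test, p = 0.333, the smallest possible). Among the further developmental factors NKX2-3 was called lower, at -0.79 ± 0.23 (edgeR adjusted p = 0.0371), and was not called by DESeq2.

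**Figure D4:**
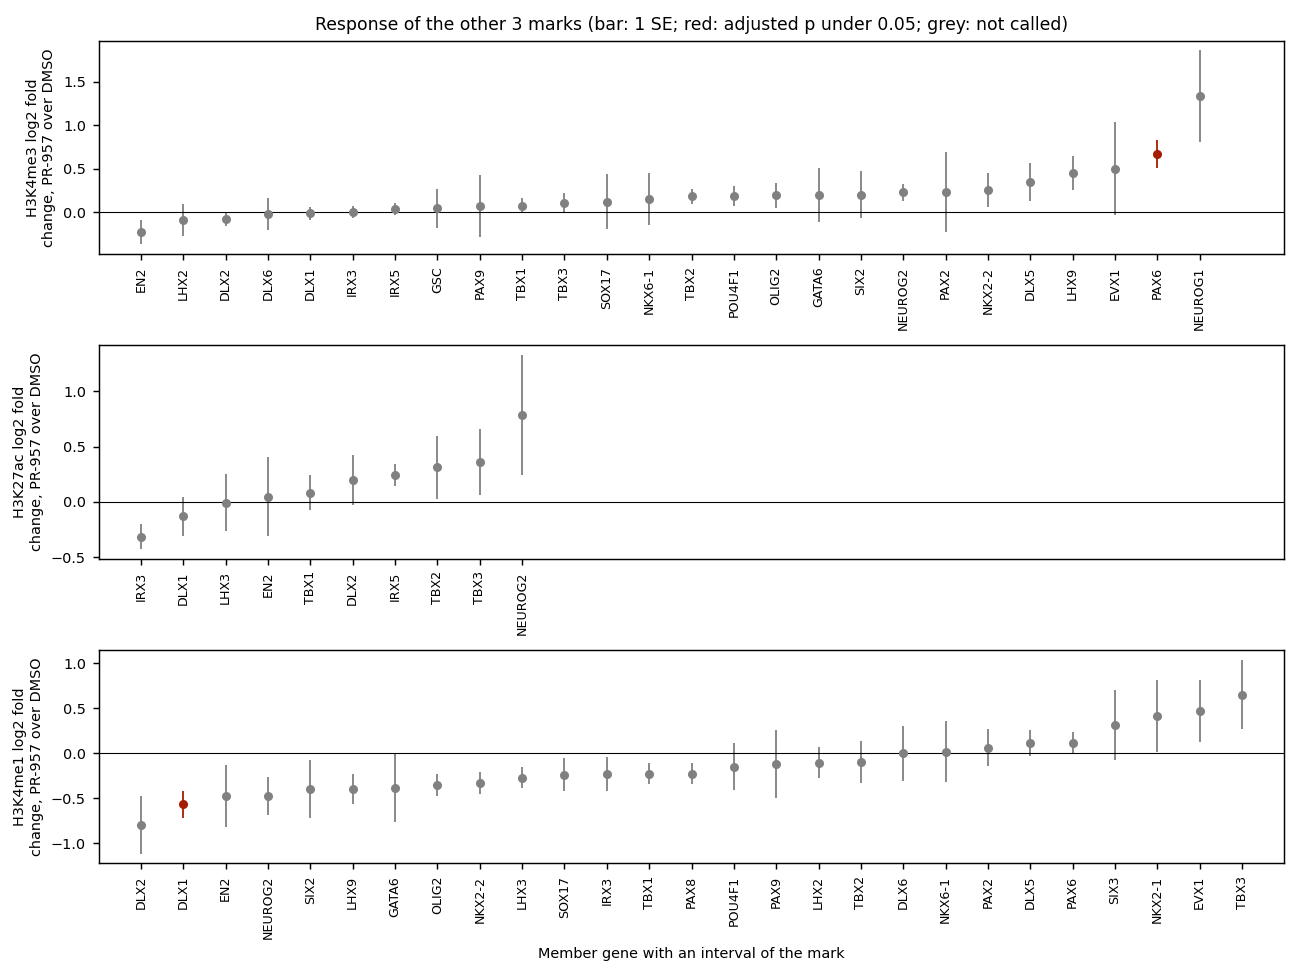
Log2 fold change (PR-957 over DMSO) with bars of 1 SE for H3K4me3, H3K27ac and H3K4me1 at the members with an interval of each mark, ordered from lowest to highest within a mark, red where called. PAX6 (0.67) is the called member in H3K4me3, DLX1 (-0.57) in H3K4me1, and none is called in H3K27ac.

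Set side by side, the called changes in different marks coincided at 2 members. As 39 of 46 members were called lower in H3K27me3, a call in another mark would fall on such a member in most cases. Whether the marks changed together was not tested, and neither the PAX6 call in H3K4me3 nor the DLX1 call in H3K4me1 was kept in DESeq2. PAX6 had less H3K27me3 and more H3K4me3, and its H3K4me1 did not pass the test (0.12 ± 0.13, edgeR adjusted p = 0.699). DLX1 had less H3K27me3 and less H3K4me1, while its H3K4me3 (-0.013 ± 0.076) and H3K27ac (-0.13 ± 0.18) did not pass the test. The other 37 members with lower H3K27me3 had no call in another mark. Those that carried H3K27me3 alone, such as PAX1 and TBX5, had no interval of another mark to test.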

How the data were processed

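The authors deposited counts, 1 table per Cut & Tag library, of reads in intervals with coordinates on hg38. The 4 libraries of a mark share 1 interval list, in which intervals nest and overlap. Per the submitters' processing notes, the tools included Trimmomatic 0.39, Bowtie2 2.2.5, Picard 2.27.1, SAMtools 1.7, SEACR 1.3 and deepTools 3.5.1, and the study's methods name Bowtie2 alignment to hg38 and peak calling by MACS2 or SEACR. How the lists were merged, how reads were counted and whether duplicates were removed are not given in the sources used here, and no spike-in scaling is stated. IgG samples were not analysed here. Totals ranged from 9885836 to 14165777 counts for H3K27ac, 10032503 to 12047958 for H3K27me3, 15204186 to 30584219 for H3K4me1 and 30070119 to 44591150 for H3K4me3.

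The raw counts were tested in R 4.3.3 with edgeR 4.0.16 (filterByExpr with a minimum count of 10, TMM, quasi-likelihood test of PR-957 against DMSO, no block), fitted over all intervals of a mark, with a Benjamini-Hochberg adjusted p under 0.05 as the threshold. The script was tested on simulated data. Errors are the standard error of the log2 fold change. Start sites came from GENCODE 44. Deviations of same-numbered libraries were nearly uncorrelated for H3K27ac, H3K27me3 and H3K4me1 (correlation -0.0089, -0.0069 and 0.0068). For H3K4me3 the correlation was 0.167, so a weak pairing by replicate number is possible there. Alternatives were median-of-ratios, library-size, cyclic loess (limma 3.58.1) and GC-trend scaling, DESeq2 1.42.0, other count filters, a replicate block, windows of 1 kb and 5 kb, other interval choices, and leaving out each library. By rule, values per library are given for members called in any mark, for those with H3K27ac, for the 3 highest levels per mark and for the 3 smallest p where none was called, while the promoters of PAX6 and DLX1 were added after their values were seen. The members and the gene lists were chosen with earlier results of these data known. Some genes of the comparison lists are not reported here.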

Additional observations from a re-analysis of the deposited data

How the results depend on the processing

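Most counts held across the alternatives. With 2 libraries per group, precision is limited to the spread between them, and leaving out a library leaves 1 in its group, whose spread is then taken from the other group. The cause of the differences below was not tested, except that fewer libraries or intervals entered where so named.

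For H3K27me3, called members numbered 28 with library size alone and 25 with cyclic loess offsets, against 39, and the member median was -0.15 and -0.13 under these, -0.35 with GC offsets, -0.25 with a mean count of at least 50, -0.28 with counts summed over outermost intervals, and -0.35 to -0.31 when 1 library was left out. EN2 reached 0.033 with cyclic loess offsets. The replicate block gave 36 called members, and gave 0, 1 and 1 for H3K27ac, H3K4me1 and H3K4me3, as without it. The replicate block ended the calls of PAX8, SIX6 and IRX5 in H3K27me3 and no other.

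For H3K27ac, the member median was 0.080 with GC offsets, 0.085 with a 1 kb window and 0.085 with a 5 kb window, and 0.099 to 0.15 when 1 library was left out. The difference in share of counts ranged from -0.00010 to 0.0010 percentage points when 1 library was left out.

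For H3K4me1, called members numbered 0 with GC offsets, 0 in DESeq2, 2 with a 5 kb window, and 0 to 1 when 1 library was left out. The median was -0.088 with GC offsets and -0.089 with summed counts. Further developmental factors called numbered 0 with library size, GC offsets, DESeq2, the interval highest per kb and summed counts, 1 with cyclic loess and with a mean count of at least 50, and 0 to 1 when 1 library was left out, against 2.

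For H3K4me3, called members numbered 0 in DESeq2, 0 with summed counts and 0 when any 1 library was left out, and the median ranged from 0.042 to 0.28 in those fits. Further factors called numbered 0 in DESeq2 and with the interval highest per kb, and 0 to 1 when 1 library was left out, against 1.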
